A study of Mus musculus with 27 samples.

Results

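A set of 41 genes that mark mesenchymal and smooth muscle identity was followed in bulk RNA sequencing of mouse cells stimulated with imidazole propionate (ImP), a metabolite of histidine made by gut microbes. The genes were listed by name, and all 41 were present in the deposited count table of 25192 gene symbols. They comprise 16 genes of the contractile apparatus, the smooth muscle coactivator Myocd and 5 receptor and signalling genes of pericytes and other mural cells. The others are 11 fibroblast surface, cytoskeletal and secreted genes and 4 transcription factors of mesenchymal lineages. The last 4 are transcriptional repressors of epithelial genes that act in the epithelial-mesenchymal transition. There were 27 libraries in 9 groups of 3: cells labelled mouse aortic endothelial cells (MAECs), mouse embryonic fibroblasts (MEFs) and bone marrow derived macrophages (BMDMs), each unstimulated (0 h) or after 1 h or 2 h with ImP at 10 µg/mL. No strain, genotype, animal, age or sex is given in the labels, and no vehicle group was matched to the 1 h and 2 h times, so time in culture and ImP cannot be told apart. MAECs were plated at 100000 cells per well and made into libraries with a low-input kit after RNA isolation with miRNeasy Micro, whereas BMDMs and MEFs were plated at 600000 cells per well and prepared with a directional kit after isolation with a QIAamp kit. Cell type and kit therefore cannot be told apart in any comparison of MAEC-labelled libraries with the others. The labels do not say that replicates were separate cultures, so p-values measure the spread between these libraries, which may be technical.

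Smooth muscle cells contract through actin and myosin filaments with their regulatory proteins, and many of the genes for these proteins are switched on by serum response factor (SRF) bound at a DNA element called the CArG box. SRF works with myocardin in smooth muscle and with the myocardin-related factors Mrtfa and Mrtfb in many cells, the latter in response to actin polymerization. Fibroblasts share part of this contractile programme and add collagen-binding receptors, growth factor receptors and matrix proteins, while pericytes carry receptors for platelet-derived growth factor and Notch. Snail, Slug and the ZEB factors repress epithelial genes and are also expressed by mesenchymal cells and some leukocytes.

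Promoter sequences are shown for Myl9 and Cnn2, the members with an exact match to the CArG box in the 250 bases before the annotated start, and for Acta2, a contractile gene of much higher level in MAEC-labelled cells whose window held no exact match. The box was searched as CC, then 6 letters that are each A or T, then GG. They were taken from RefSeq on GRCm38.p6, are written 5′ to 3′ on the strand of the gene, and carry an exact match in capitals.
Myl9, chr2:156775214-156775463, plus strand: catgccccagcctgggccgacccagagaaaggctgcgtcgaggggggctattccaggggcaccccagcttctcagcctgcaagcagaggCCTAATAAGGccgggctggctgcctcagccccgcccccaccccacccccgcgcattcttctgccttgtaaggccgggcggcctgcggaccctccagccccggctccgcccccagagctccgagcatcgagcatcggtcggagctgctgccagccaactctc
Cnn2, chr10:79988350-79988599, plus strand: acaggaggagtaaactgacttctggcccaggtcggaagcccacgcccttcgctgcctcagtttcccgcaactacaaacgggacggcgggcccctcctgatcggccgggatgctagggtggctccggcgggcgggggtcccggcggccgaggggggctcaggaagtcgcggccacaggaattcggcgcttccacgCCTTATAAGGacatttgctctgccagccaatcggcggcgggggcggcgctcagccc
Acta2, chr19:34255374-34255623, minus strand: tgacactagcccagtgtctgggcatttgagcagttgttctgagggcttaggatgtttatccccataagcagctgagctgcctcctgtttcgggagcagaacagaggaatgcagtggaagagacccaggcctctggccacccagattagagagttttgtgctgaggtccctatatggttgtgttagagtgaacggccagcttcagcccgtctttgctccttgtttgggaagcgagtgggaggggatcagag
The match began 161 bases before the start in Myl9 and 56 bases before it in Cnn2. Windows were found for 31 of the 41 members, and 2 of these 31 held an exact match, beside 439 of all 27025 genes with a window (1.62%). With 1 letter allowed to differ, a setting chosen after the data were seen, 7 of the 31 had a match (Acta2, Cald1, Cnn2, Cspg4, Lmod1, Myl9 and Tpm1), or 22.6%, beside 21.1% of all genes. The element reads the same on both strands, so a single search covered both. A match is a description of letters, and the absence of one says only that these letters are not in this window.

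Total counts ran from 28754034 to 35583478 per BMDM library, from 30554596 to 36489015 per MEF library and from 18955352 to 61029374 per MAEC-labelled library, and 3 counts in a MAEC-labelled library corresponded to 0.0492 to 0.158 CPM. Levels are in CPM, counts normalised to library size, and are scaled over all 27 libraries by the trimmed mean of M values (TMM). The identity given by the labels was checked with marker genes at 0 h. Of 14 endothelial markers, only Eng reached a mean of 10 CPM in MAEC-labelled libraries, 8 were under 1 CPM, and Tie1, Erg and Cldn5 had no counts. Against MEFs, 7 of the 11 endothelial markers tested were nevertheless higher and 3 lower in MAEC-labelled cells, with a median log2 difference of 3.24. Of all genes tested, 37.2% were higher and 34.9% lower in that comparison. The summed level of the 14 markers was 95.8 to 137 CPM, against 92.3 to 105 CPM in MEFs and 246 to 269 CPM in BMDMs. Most of the sum was Eng in MAEC-labelled libraries (95.5 ± 17.7 CPM, SD, n = 3) and Flt1 in MEFs (87.9 ± 6.00 CPM). Pecam1 and Cdh5, defining endothelial genes, stood at 2.3, 1.53 and 0.491 CPM and 0.213, 2.4 and 0 CPM. The 12 macrophage markers summed to 55.0 to 86.3 CPM in MAEC-labelled libraries and to 26999 to 29574 CPM in BMDMs. The cytokeratin gene Krt19 stood at 183, 133 and 179 CPM and the mesothelial genes Wt1 and Lrrn4 had no counts in unstimulated MAEC-labelled libraries. Because Pecam1 and Cdh5 were under 3 CPM and Tie1, Erg and Cldn5 at 0, against the endothelial label, the libraries are called MAEC-labelled throughout. In MEFs, 4 of the 11 fibroblast members, Thy1, Dpt, Pi16 and Fap, had a mean under 1 CPM. Of 5 mesothelial markers, Krt19 among them, 2 reached 10 CPM in MEFs and 3 were under 1 CPM. One of the former was Msln, at 135, 132 and 140.0 CPM. In MAEC-labelled libraries 1 of the 5 reached 10 CPM and 3 were under 1 CPM. The 5 summed to 167 to 185 CPM in MEFs and 136 to 184 CPM in MAEC-labelled libraries. In bulk RNA, fewer cells of a type and less RNA per cell cannot be told apart.

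Unstimulated MAEC-labelled cells held more RNA of most members than either other cell type. Of the 38 members tested (all but Kcnmb1, Myocd and Tcf21, which were too low), 26 were higher and 5 lower in MAEC-labelled cells than in MEFs, where 72.1% of all 17038 genes tested were called in either direction, 37.2% as higher and 34.9% as lower. Against BMDMs, 34 members were higher and 2 lower, where 76.7% of all genes were called, 40.6% as higher and 36.1% as lower. MEFs exceeded BMDMs in 26 members and fell below them in 3, where 68.3% of all genes were called, 35.5% as higher and 32.7% as lower. The median log2 difference of the tested members was 1.77, 7.42 and 4.74 in these comparisons, beside 0.05, 0.13 and 0.07 over all genes tested. Calls are edgeR quasi-likelihood tests with Benjamini-Hochberg adjustment over all genes and a threshold of 0.05, fitted to the 27 libraries together. Scaling by library totals alone moved the median of all genes to 0.36 for MAEC-labelled cells against BMDMs and to 0.48 for MEFs against BMDMs. In the latter comparison the share of called genes that were higher was then 63.7%, against 52.1% with TMM scaling, and 28 members were higher and 2 lower. The plot of unstimulated levels shows all members in the 9 libraries.

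**Figure D1:**
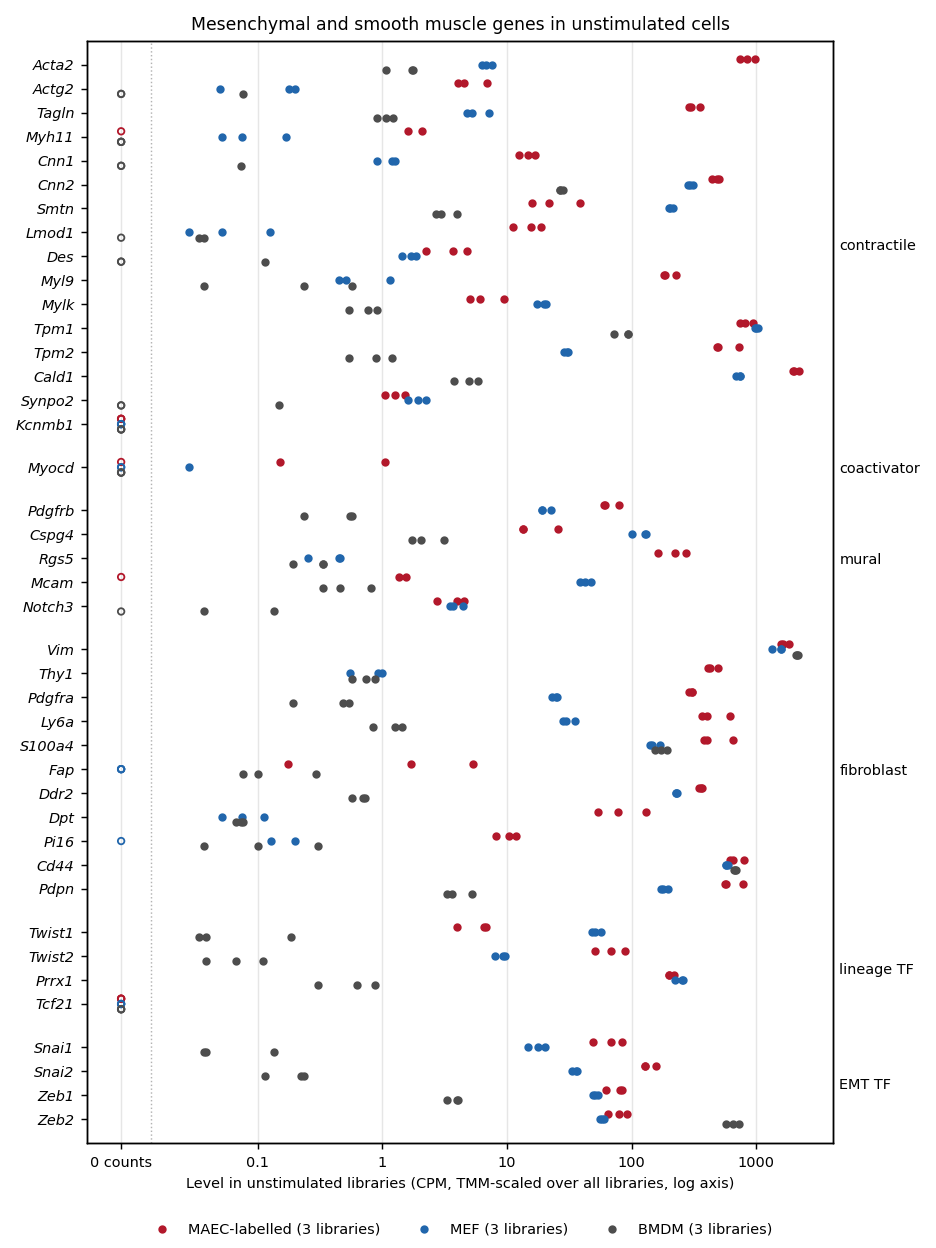
Level of each of the 41 members in the 9 unstimulated libraries, in CPM on a log axis; each point is 1 library, colour gives the cell type, and open points at the left are libraries with 0 counts. Acta2, Tagln and Myl9 lie at 183 to 988 CPM in the MAEC-labelled libraries and at 0.0368 to 7.53 CPM in the MEF and BMDM libraries, while Smtn, Mylk, Cspg4, Mcam and Twist1 are highest in MEFs.

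Among the contractile genes, 10 of 15 tested were higher and 2 lower in MAEC-labelled cells than in MEFs. Over all genes tested, 37.2% were higher and 34.9% lower. Acta2, which encodes alpha smooth muscle actin, stood at 849, 738 and 988 CPM in the 3 MAEC-labelled libraries, 6.34, 7.53 and 6.84 CPM in the MEF libraries and 1.77, 1.74 and 1.07 CPM in the BMDM libraries. The 3 cell types did not overlap, and the log2 difference from MEFs was 6.96 (SE 0.26, adjusted p = 1.08e-17). Tagln, the actin-binding protein transgelin, followed the same order, with 291, 299.8 and 358 CPM, 5.27, 7.2 and 4.76 CPM and 1.07, 0.905 and 1.22 CPM. Its difference from MEFs was 5.78 (SE 0.17, adjusted p = 7.41e-20). For Myl9, a regulatory light chain of myosin and a holder of the CArG box shown above, the values were 184, 183 and 229 CPM against 0.448, 0.512 and 1.15 CPM and 0.0368, 0.235 and 0.574 CPM. MEFs and BMDMs overlapped, and MAEC-labelled cells exceeded MEFs by 8.15 (SE 0.29, adjusted p = 2.00e-18) on the log2 scale, the largest difference from MEFs among the contractile genes tested. Lmod1, a leiomodin that nucleates actin filaments, was at 11.1, 15.5 and 18.7 CPM in MAEC-labelled cells, 0.124, 0.0512 and 0.0282 CPM in MEFs and 0.0368, 0.0335 and 0 CPM in BMDMs. It differed from MEFs by 7.69 (SE 0.56, adjusted p = 3.14e-12), and against BMDMs, with 2 counts over 3 libraries, its ratio was 586 (95% counting interval 162 to 4835).

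Tpm1, Cald1 and Cnn2 were abundant in MAEC-labelled cells and in MEFs, whereas Tpm2 and Cnn1 had their highest levels in MAEC-labelled cells. Tpm2, a tropomyosin, had 486, 490.2 and 735 CPM in MAEC-labelled cells, 30.9, 28.9 and 30.4 CPM in MEFs and 0.884, 0.536 and 1.19 CPM in BMDMs, without overlap. The difference from MEFs was 4.25 (SE 0.17, adjusted p = 3.12e-17). Tpm1, its paralog, was at 815, 741 and 936 CPM and 980.1, 1002 and 1026 CPM in MAEC-labelled cells and MEFs, a difference of -0.27 (SE 0.13, adjusted p = 0.0593) that did not pass, although every MEF library lay above every MAEC-labelled one. It was called lower in 4 of 15 alternatives, among them limma-voom (-0.28, adjusted p = 0.0276) and library totals alone (-0.45, adjusted p = 0.00103), and was 0.18, of the opposite sign, with the trend on gene length removed (adjusted p = 0.219). Cald1, which encodes caldesmon, stood at 1972, 2016 and 2213 CPM, 693, 739.6 and 738 CPM and 5.82, 3.79 and 4.94 CPM. It was higher by 1.51 (SE 0.12, adjusted p = 7.11e-12) than in MEFs, and MEFs exceeded BMDMs by 7.22 (SE 0.15, adjusted p = 1.05e-22). Cnn2, a calponin found in many cell types and the other holder of the motif, was higher than in MEFs by 0.68 (SE 0.10, adjusted p = 1.90e-06) with 499, 484 and 445 CPM against 284, 297 and 309 CPM. That call was lost with the length trend removed (0.12, adjusted p = 0.270). Cnn1, the calponin of smooth muscle, had 14.7, 16.6 and 12.4 CPM in MAEC-labelled cells and 1.27, 1.2 and 0.901 CPM in MEFs, and in BMDMs 2 counts, all in 1 library. Its difference from MEFs was 3.69 (SE 0.38, adjusted p = 2.87e-09), and its ratio to BMDMs was 604 (95% counting interval 167 to 4988). Actg2, enteric smooth muscle actin, was lower in level at 6.88, 4.5 and 4.04 CPM and also higher than in MEFs (5.16 on the log2 scale).

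Some contractile genes had the opposite order or were near the limit of detection. Smtn, which encodes smoothelin, was at 38.3, 21.8 and 15.8 CPM in MAEC-labelled cells and 201, 203 and 214 CPM in MEFs, a log2 difference of -3.01 (SE 0.23, adjusted p = 7.87e-12). In BMDMs it was at 3.98, 2.98 and 2.72 CPM, below MEFs by 6.00 on the log2 scale. Mylk, the kinase of the myosin light chain, was likewise lower than in MEFs, with a difference of -1.48 (SE 0.25, adjusted p = 8.40e-06) and 9.49, 5.03 and 6.12 CPM against 20, 17.4 and 20.6 CPM. Des, the muscle intermediate filament desmin, had 2.25, 3.71 and 4.76 CPM and 1.44, 1.87 and 1.69 CPM, without overlap, and the difference of 1.09 (SE 0.55, adjusted p = 0.0769) did not pass, whereas it did in 6 of 15 alternatives, among them DESeq2 (1.18, adjusted p = 0.0157) and limma-voom (0.91, adjusted p = 0.0299). BMDMs had 3 Des counts over their libraries, and the ratio of MEFs to them was 46.1 (95% counting interval 15.8 to 224). Synpo2, an actin-bundling protein, was at 1.51, 1.27 and 1.06 CPM and 1.59, 2.23 and 1.94 CPM, and its difference did not pass (-0.58, SE 0.59, adjusted p = 0.385) and was 0.21 with the length trend removed. Myh11, the smooth muscle myosin heavy chain and a marker of differentiated smooth muscle, had 1.61, 2.1 and 0 CPM in the MAEC-labelled libraries at 0 h. These are 83, 48 and 0 counts, so 1 of the 3 libraries overlapped with MEFs, and the difference from MEFs was 3.62 (SE 1.20, adjusted p = 0.00962), a call that limma-voom did not make (2.18, adjusted p = 0.127). BMDM libraries had no Myh11 counts, so the MAEC-labelled library with 0 counts overlapped with them as well. Over the summed counts, MAEC-labelled cells were at least 35.9-fold higher with 3 counts over the group as the floor. That bound was 26.9-fold without the MAEC-labelled library of 83 counts and 29.4-fold without that of 48 counts. It was 48.7-fold without the library of 0 counts. Myocd had 0, 24 and 4 counts in the unstimulated MAEC-labelled libraries and 1 count in all 3 MEF libraries. Kcnmb1, a potassium channel subunit of smooth muscle, had no counts at 0 h in any cell type.

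Of the 5 mural cell genes, 2 were higher and 2 lower in MAEC-labelled cells than in MEFs. That is near the shares of all genes tested, 37.2% higher and 34.9% lower. Rgs5, a regulator of G protein signalling that marks pericytes, stood at 274, 224 and 163 CPM in MAEC-labelled libraries, 0.448, 0.461 and 0.253 CPM in MEFs and 0.332, 0.335 and 0.191 CPM in BMDMs. The difference from MEFs was 9.13 (SE 0.30, adjusted p = 3.30e-19), and MEFs and BMDMs overlapped. Pdgfrb, the beta receptor for platelet-derived growth factor, was at 60.8, 60.6 and 79.4 CPM, 19.1, 19 and 22.7 CPM and 0.553, 0.235 and 0.574 CPM, and exceeded MEFs by 1.73 (SE 0.22, adjusted p = 7.28e-08). Cspg4, a proteoglycan of pericytes and progenitors, had the reverse order, with 13.5, 13.5 and 25.8 CPM against 128, 102 and 130.1 CPM in MEFs and 3.13, 1.74 and 2.03 CPM in BMDMs. The difference from MEFs was -2.77 (SE 0.25, adjusted p = 3.72e-10) and that from BMDMs 2.93 (SE 0.29, adjusted p = 9.63e-10). Mcam, an adhesion molecule of endothelial and mural cells, was at 1.55, 1.35 and 0 CPM in MAEC-labelled libraries and 38.3, 46.9 and 42.6 CPM in MEFs, a difference of -5.38 (SE 0.64, adjusted p = 5.99e-08). Of these MAEC-labelled libraries, the third had no Mcam counts where the first had 80, and the difference from BMDMs, at 0.811, 0.335 and 0.459 CPM, did not pass (0.93, SE 0.75, adjusted p = 0.264); without that library it was 1.46 with an adjusted p of 0.0433, and in limma-voom it was -0.40. Notch3, a Notch receptor of arterial smooth muscle, was at 4.53, 3.98 and 2.72 CPM in MAEC-labelled cells, 3.51, 4.41 and 3.66 CPM in MEFs and 0.0368, 0.134 and 0 CPM in BMDMs. It exceeded BMDMs by 5.89 (SE 0.74, adjusted p = 7.65e-08), while the difference from MEFs, -0.04 (SE 0.50, adjusted p = 0.955), did not pass and changed sign with the scaling. With the length and GC trends removed it was 1.26 and passed (adjusted p = 0.0266).

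Of the 11 fibroblast genes, 9 were higher and 0 lower in MAEC-labelled cells than in MEFs, where 37.2% and 34.9% of all genes tested were. For all 11, every MAEC-labelled library lay above every MEF library, as it did for 35.4% of all genes tested. Dpt, which encodes the matrix protein dermatopontin, was at 131, 77.2 and 53.7 CPM in MAEC-labelled libraries, 0.0746, 0.0512 and 0.113 CPM in MEFs and 0.0737, 0.0670 and 0.0766 CPM in BMDMs. The log2 difference from MEFs was 10.06 (SE 0.39, adjusted p = 9.65e-18). Thy1, a surface glycoprotein used to sort fibroblasts, stood at 428, 411 and 494 CPM, against 0.547, 0.999 and 0.929 CPM in MEFs and 0.737, 0.57 and 0.88 CPM in BMDMs. MEFs and BMDMs overlapped, and the excess over MEFs was 9.07 (SE 0.27, adjusted p = 9.65e-20). Pi16, a peptidase inhibitor of adventitial fibroblasts, was at 8.12, 10.3 and 11.7 CPM, against 0.199, 0.128 and 0 CPM and 0.0368, 0.101 and 0.306 CPM, with a difference from MEFs of 6.44 (SE 0.65, adjusted p = 1.44e-09). Pdgfra, the alpha receptor for platelet-derived growth factor, was at 292, 308 and 308 CPM against 22.9, 24.7 and 25.1 CPM and 0.479, 0.536 and 0.191 CPM. It exceeded MEFs by 3.64 (SE 0.14, adjusted p = 1.72e-17), and MEFs exceeded BMDMs by 5.88 (SE 0.21, adjusted p = 9.05e-19). Fap, a fibroblast surface protease, differed between MAEC-labelled libraries, with 278, 4 and 45 counts (5.38, 0.175 and 1.7 CPM), and had no counts in the MEF libraries. That is at least 124-fold higher with 3 counts over the group as the floor, and at least 38.0-fold without the first MAEC-labelled library, which held most of the counts. In BMDMs Fap had 13 counts, at least 5.98-fold above MEFs on the same floor.

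Ly6a, a surface antigen of stem and progenitor cells, was at 370.1, 399.9 and 620.5 CPM in MAEC-labelled cells and 28.3, 35.4 and 29.7 CPM in MEFs, a difference of 3.9 (SE 0.22, adjusted p = 3.45e-14). Pdpn, the membrane glycoprotein podoplanin, was higher than in MEFs by 1.81 (SE 0.14, adjusted p = 1.21e-11), with 558, 576 and 788 CPM, 177, 198 and 173 CPM and 5.23, 3.32 and 3.64 CPM in the 3 cell types. S100a4, a calcium-binding protein also made by macrophages, was at 383, 406 and 658 CPM in MAEC-labelled libraries, 168, 141 and 147 CPM in MEFs and 192, 172 and 154 CPM in BMDMs. MEFs and BMDMs overlapped, and both lay below the MAEC-labelled cells, by 1.67 and 1.48 on the log2 scale. Ddr2, a collagen receptor kinase, was at 369, 348 and 361 CPM against 229, 226 and 230.0 CPM in MEFs, a difference of 0.65 (SE 0.11, adjusted p = 5.02e-06). It was at 0.7, 0.57 and 0.727 CPM in BMDMs, and MAEC-labelled cells exceeded them by 9.08 on the log2 scale. Cd44, the hyaluronan receptor, was at 619.7, 655 and 797 CPM, 569, 577 and 599 CPM and 659.6, 693 and 671 CPM, and none of its differences passed. Its difference from MEFs, 0.25 (SE 0.11, adjusted p = 0.0504), passed in 7 of 15 alternatives, among them DESeq2 (0.33, adjusted p = 0.00601) and the fit with the length trend removed (0.73, adjusted p = 1.97e-06). Vim, the intermediate filament vimentin, was abundant everywhere and highest in BMDMs, at 2164, 2142 and 2089 CPM against 1582, 1642 and 1823 CPM and 1573, 1342 and 1574 CPM. It was lower in MAEC-labelled cells than in BMDMs, with a difference of -0.34 (SE 0.08, adjusted p = 3.39e-04). That call was lost with library totals alone (-0.10, adjusted p = 0.213) and with the length trend removed (-0.20, adjusted p = 0.104). The difference from MEFs, 0.17 (SE 0.08, adjusted p = 0.0548), did not pass, though it did in 8 of 15 alternatives, DESeq2 among them (0.25, adjusted p = 0.00815).

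Twist1 and Twist2, paralogous transcription factors of the mesenchyme, differed in opposite directions. Twist2 was at 89.3, 68.6 and 51.2 CPM in MAEC-labelled cells and 9.58, 7.99 and 9.35 CPM in MEFs, a log2 difference of 2.96 (SE 0.20, adjusted p = 7.67e-13). Twist1 was at 6.78, 6.51 and 4.01 CPM and 50.9, 47.8 and 56.7 CPM, a difference of -3.16 (SE 0.25, adjusted p = 1.89e-11). In BMDMs Twist2 was at 0.111, 0.0670 and 0.0383 CPM and Twist1 at 0.184, 0.0335 and 0.0383 CPM. Prrx1, a homeobox factor of limb and craniofacial mesenchyme, was at 199, 218 and 201 CPM and 256, 222 and 260.0 CPM, with a difference of -0.26 (SE 0.17, adjusted p = 0.175) that did not pass. It was called lower in limma-voom (-0.26, adjusted p = 0.0120) and with library totals alone (-0.43, adjusted p = 0.0246), and higher with the length trend removed (0.48, adjusted p = 0.0176). It was at 0.626, 0.871 and 0.306 CPM in BMDMs. Tcf21, a factor of epicardial and other visceral mesenchyme, had no counts at 0 h in any cell type.

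The 4 repressors of epithelial genes that act in the epithelial-mesenchymal transition were all higher in MAEC-labelled cells than in MEFs. Of all genes tested, 37.2% were. Snai1 (Snail) stood at 68.9, 49.1 and 83.8 CPM, 17.8, 14.7 and 20.1 CPM and 0.0368, 0.134 and 0.0383 CPM, and Snai2 (Slug) at 158, 128 and 129 CPM, 35.9, 36.4 and 33.1 CPM and 0.221, 0.235 and 0.115 CPM. Their differences from MEFs were 1.94 (SE 0.19, adjusted p = 7.42e-10) and 1.98 (SE 0.14, adjusted p = 1.96e-12), with no overlap between cell types. They fell to 1.04 and 1.23 with the length trend removed. Zeb1 was at 84, 62.5 and 80.6 CPM against 50.8, 49 and 54.2 CPM in MEFs, a difference of 0.56 (SE 0.12, adjusted p = 2.74e-04), and at 3.28, 3.99 and 4.02 CPM in BMDMs. Zeb2 was highest in BMDMs, at 576, 653 and 723 CPM, followed by 78.8, 92.8 and 64.3 CPM in MAEC-labelled cells and 55.7, 57.6 and 60.5 CPM in MEFs. The difference of MAEC-labelled cells from BMDMs was -3.05 (SE 0.13, adjusted p = 3.19e-17) and that from MEFs 0.44 (SE 0.12, adjusted p = 0.0022), the latter falling to 0.28 with an adjusted p of 0.0576 under scaling by library totals alone.

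**Figure D2:**
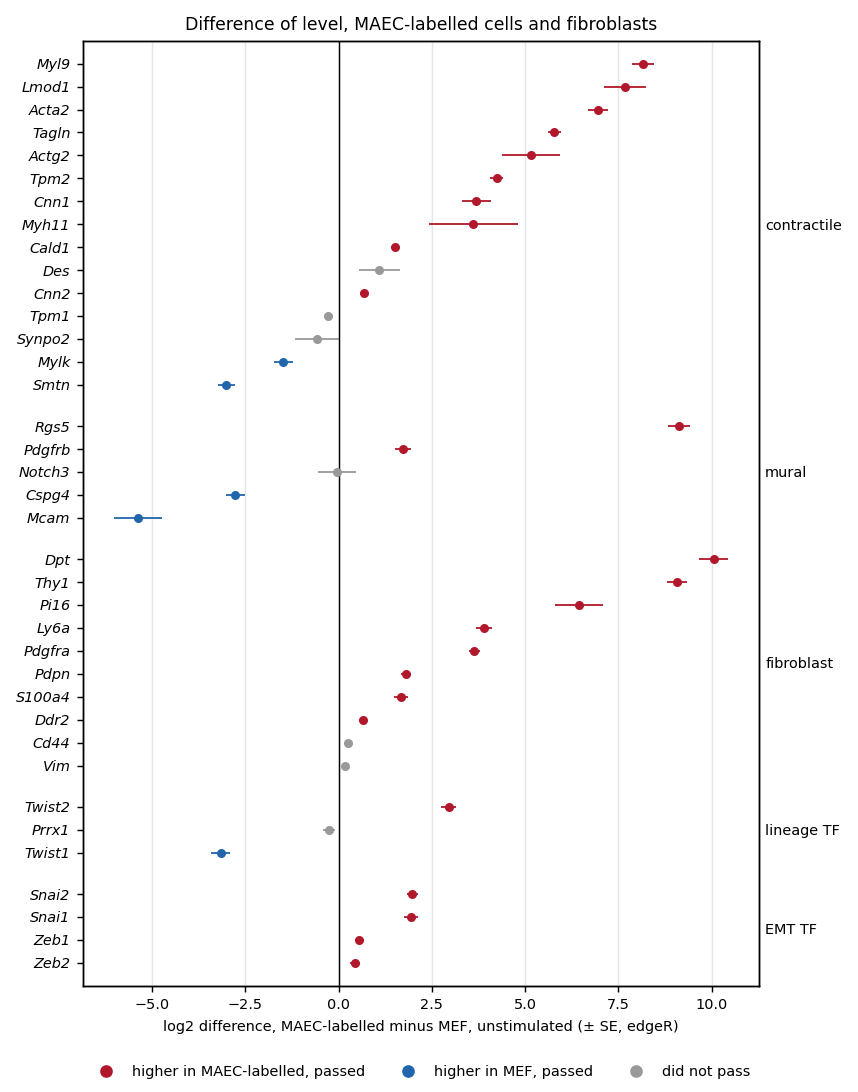
Difference in level between unstimulated MAEC-labelled cells and MEFs on the log2 scale, with the standard error from edgeR, for 37 tested members grouped by role (Fap, with no counts in MEFs, is left out). Points in red passed as higher in MAEC-labelled cells, points in blue as higher in MEFs, and grey points did not pass. The contractile and mural genes span both sides, whereas no fibroblast gene or repressor of epithelial genes lies to the left of 0.

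At 0 h, MAEC-labelled cells had the highest mean of the 3 cell types for 28 members, MEFs for 9 (Smtn, Mylk, Tpm1, Synpo2, Cspg4, Mcam, Notch3, Twist1 and Prrx1) and BMDMs for 2 (Vim and Zeb2), and 2 had no counts. The libraries of the highest cell type lay above all others for 24, 8 and 2 of these. Within MAEC-labelled cells, levels per kilobase of exon were highest for S100a4, at 826 ± 261 CPM per kb (mean ± SD, n = 3). Acta2 and Ly6a followed at 391 ± 56.9 and 385 ± 113 CPM per kb, and Vim was at 355 ± 26.4 CPM per kb, so these 3 did not differ beyond their spread. Smtn was at 5.78 ± 2.66 and Myh11 at 0.163 ± 0.144 CPM per kb. The 9 MAEC-labelled libraries summed over the contractile genes lie above all MEF libraries, as the plot of summed levels shows. Over 13074 genes the difference between MAEC-labelled cells and MEFs fell with exon length (Spearman's rho = -0.35) and, less steeply, with GC content (rho = -0.11), whereas MEFs against BMDMs, which share a kit, had rho of 0.06 and 0.03. These are correlations across genes, which are not independent replicates. With the length trend removed, 28 members were higher and 5 lower in MAEC-labelled cells than in MEFs, with a median of 1.34. With the length and GC trends both removed, a setting chosen after the data were seen, 29 were higher and 5 lower, with a median of 1.66. Of the 31 members called against MEFs, Cnn2 alone lost its call with the length trend removed. On the linear scale, not the log2 scale, removal made the fold difference of 12 smaller and of 6 larger by over 1.5 times. Values in parentheses are the log2 differences after removal. Those made smaller were Myl9 (7.24), Acta2 (6.29), Tagln (5.03), Actg2 (4.27), Dpt (9.22), Ly6a (2.97), Pdpn (0.99), S100a4 (0.76), Snai1, Snai2, Cspg4 (-1.97) and Mylk (-0.76). Those made larger were Cald1 (2.30), Pdgfra (4.33), Ddr2 (1.30), Zeb1 (1.25), Zeb2 (1.39) and Twist1 (-4.03). With both trends removed, 11 were smaller and 3 larger by that much, and Cspg4 (-1.23), Smtn (-2.17), Mylk (-0.59), Snai2 (0.85), Pdpn (0.88) and S100a4 (0.67) were among the former. Against BMDMs, 10 were smaller by that much with the length trend removed.

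**Figure D3:**
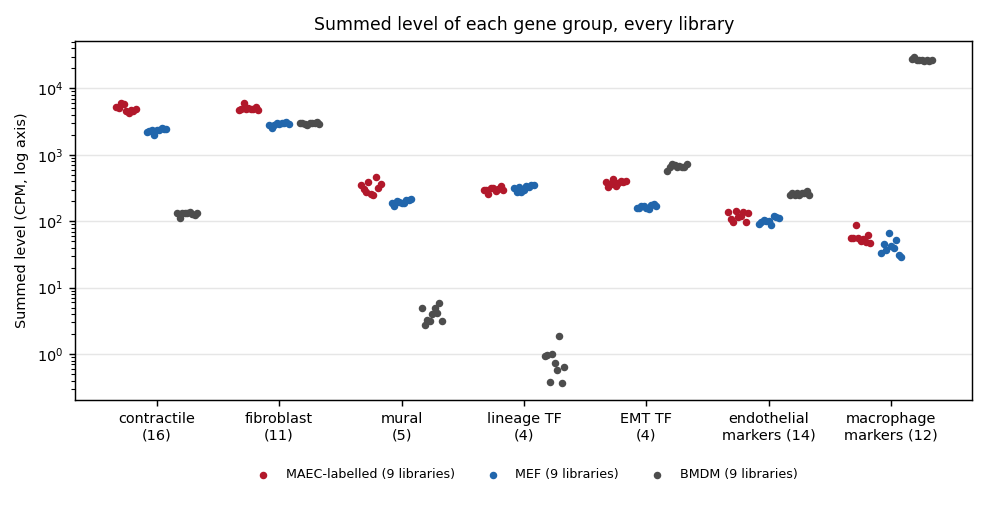
Summed level of each role of the members except the coactivator Myocd, and of 2 marker lists, in all 27 libraries. Levels are in CPM on a log axis, with the number of genes in parentheses. Each point is 1 library and colour gives the cell type. Contractile genes sum to 5023 to 5966 CPM in the unstimulated MAEC-labelled libraries, 2226 to 2357 CPM in MEFs and 110 to 135 CPM in BMDMs, and the endothelial markers sum to 95.8 to 137 CPM in the former and 92.3 to 105 CPM in MEFs.

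Upstream of the contractile genes, 14 regulators that are not members (SRF, its cofactors and other factors of the same pathway) were measured, with 5 higher and 8 lower in MAEC-labelled cells than in MEFs, where 37.2% and 34.9% of all genes tested were. Srf itself was at 1.43, 1.49 and 0.907 CPM in MAEC-labelled libraries, 58.1, 62 and 67.3 CPM in MEFs and 39.7, 34.1 and 40.2 CPM in BMDMs. It was lower than in MEFs, with a difference of -5.59 (SE 0.26, adjusted p = 2.90e-16), against the order of Acta2, Tagln and Myl9. Mef2d and Elk1, transcription factors of the MEF2 and Ets families, were also lower than in MEFs, with log2 differences of -2.94 and -2.41. Fhl2, a LIM-domain cofactor of SRF, was higher, at 216, 198 and 258 CPM against 43.5, 36.9 and 37.8 CPM, a difference of 2.51 (SE 0.16, adjusted p = 2.01e-13). Of 20 further actin and adhesion genes known as SRF targets, 19 were tested, and 11 were higher and 7 lower, against the same shares of all genes. Flna (filamin), Tln1 (talin) and Actg1 (cytoplasmic actin) were lower in MAEC-labelled cells than in MEFs, with log2 differences of -3.32, -2.32 and -1.44, while the myosin light chain Myl6 was higher by 2.08. With the length trend removed these values were -2.66, -1.65, -1.93 and 1.78, and that of Srf was -6.03, all of them still called.

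No member passed the test for a change with ImP in any cell type or at any time. In MAEC-labelled cells, 0 of 38 tested members were called at 1 h against 0 h, at 2 h against 0 h or at 2 h against 1 h, where 0% of the 14779 genes tested were called in each. In MEFs 0 of 32 members were called in these comparisons, where 0% of 14066 genes were called. In BMDMs 0 of 23 members were called, where 0.0226% of 13251 genes were called at 1 h against 0 h, 0.0302% at 2 h against 0 h and 0% at 2 h against 1 h. Members with an unadjusted p under 0.05 numbered 1, 8 and 2 in MAEC-labelled cells, 2, 4 and 6 in MEFs, and 0, 2 and 1 in BMDMs, for the 3 comparisons in that order. Over all genes tested the shares with such a p were 4.96%, 9.21% and 1.98% in MAEC-labelled cells, 5.87%, 2.43% and 12.1% in MEFs, and 5.23%, 6.15% and 1.65% in BMDMs. DESeq2 called 2 members, both at 2 h against 1 h in MEFs, and limma-voom called none. A p that misses the threshold does not show that levels were equal. The precision differed: the median standard error of the log2 change at 2 h against 0 h was 0.14 over the 28 members with a mean of at least 10 CPM in MAEC-labelled cells and 0.09 over 22 such members in MEFs. Among these members the changes at 2 h ran from -0.67 (Ly6a) to 0.67 (Smtn) in MAEC-labelled cells and from -0.13 (S100a4) to 0.23 (Cd44) in MEFs. In BMDMs 6 members reached that level, with changes from -0.12 (S100a4) to 0.09 (Cd44).

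**Figure D4:**
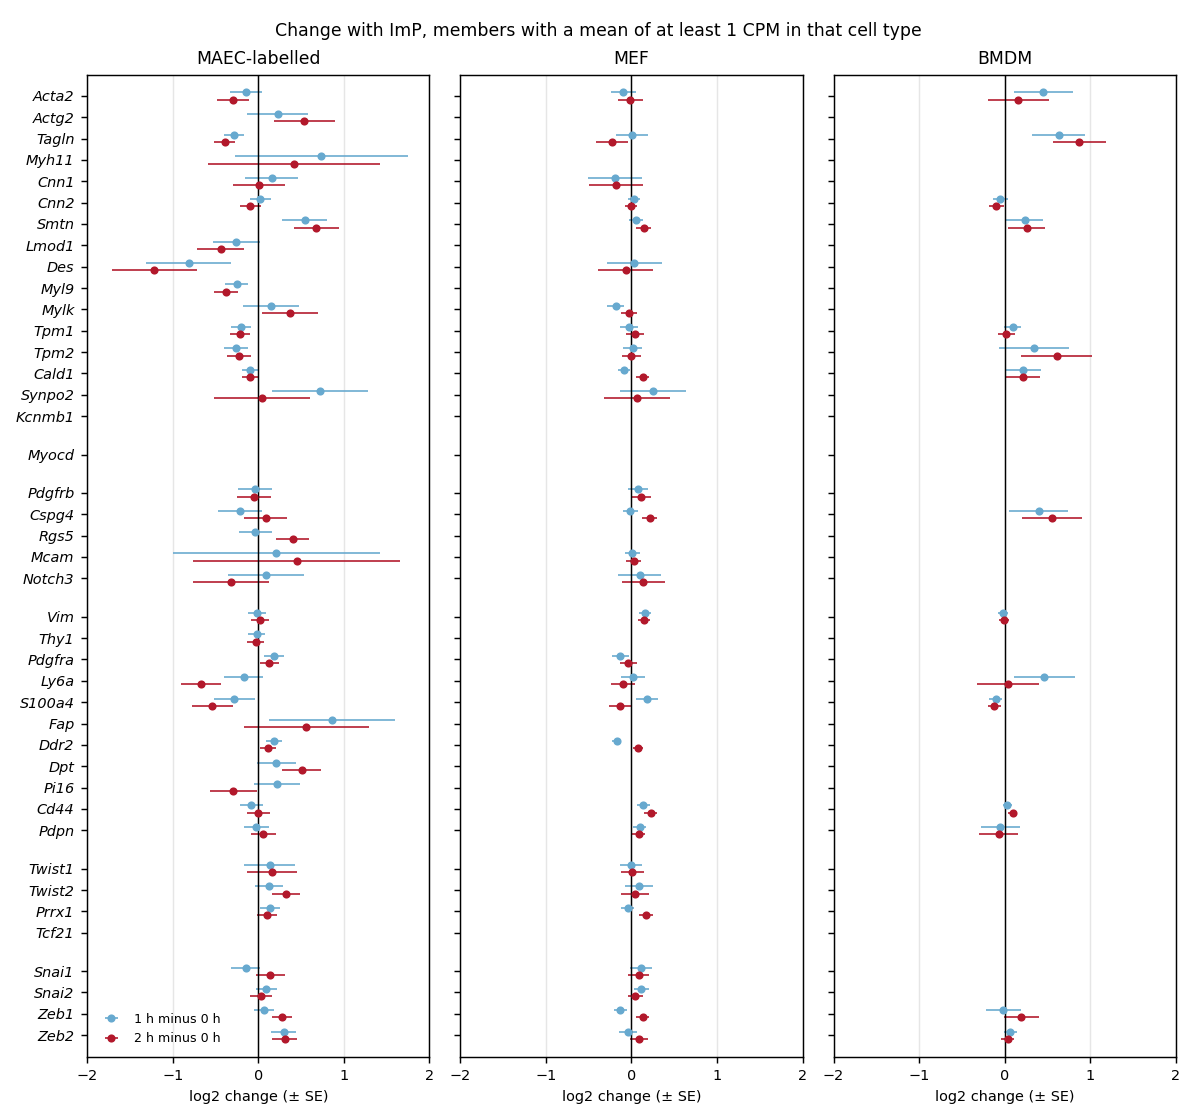
Log2 change of each member after 1 h (blue) and 2 h (red) with ImP against 0 h, with the standard error from edgeR, in MAEC-labelled cells, MEFs and BMDMs; members under a mean of 1 CPM in a cell type are left out. No change passed the test, and the error bars are widest for Mcam and Myh11 in MAEC-labelled cells, genes of few counts.

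In MAEC-labelled cells the smallest p at 1 h and at 2 h belonged to Tagln. Its libraries were at 291, 299.8 and 358 CPM unstimulated, 286, 253 and 232 CPM after 1 h and 225, 228 and 262 CPM after 2 h. All 0 h libraries lay above all 1 h and all 2 h libraries, where 8.9% and 14.7% of all genes tested did not overlap. The log2 change was -0.29 (SE 0.12, unadjusted p = 0.0321, adjusted p = 0.826) at 1 h and -0.40 (SE 0.12, unadjusted p = 0.00558, adjusted p = 0.539) at 2 h. Myl9 was at 184, 183 and 229 CPM unstimulated, 198, 135 and 163 CPM after 1 h and 149, 138 and 168 CPM after 2 h, with the 2 h libraries all below those at 0 h and a change of -0.38 (SE 0.14, unadjusted p = 0.0158, adjusted p = 0.539). Ly6a was at 370.1, 399.9 and 620.5 CPM unstimulated, 306, 371 and 528 CPM after 1 h and 261, 269 and 334 CPM after 2 h, a change of -0.67 (SE 0.23, unadjusted p = 0.0119, adjusted p = 0.539) at 2 h. The third 0 h library had the highest Ly6a level of the 9, and without that library the change was -0.42. Smtn had higher means after ImP, with 38.3, 21.8 and 15.8 CPM unstimulated, 47.8, 30.3 and 31.6 CPM after 1 h and 46.3, 33.2 and 40.7 CPM after 2 h, where the groups overlapped and the change at 2 h was 0.67 (SE 0.26, unadjusted p = 0.0237, adjusted p = 0.539). Smtn's first 0 h library was the highest of its group, and without it the change was 1.07, with an adjusted p of 0.263. Without the third it was 0.42.

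At 2 h, 1 member lay above its 0 h libraries in every MAEC-labelled library (Zeb1) and 5 lay below (Tagln, Myl9, Ly6a, S100a4 and Des), or 6 of 38, where 14.7% of all genes tested did not overlap. Of the 8 members with an unadjusted p under 0.05 at 2 h, these 5 were lower, with exon lengths of 584 bases (S100a4), 1162 (Myl9), 1205 (Ly6a), 1988 (Tagln) and 3754 (Des). The 3 that were higher have 1724 (Dpt), 4380 (Smtn) and 10266 bases (Zeb1). Libraries within the MAEC-labelled set differed in a trend with exon length: over 13074 genes, the deviation of a library from the mean of the 9 had a Spearman's rho with length of -0.27 in the third 0 h library, 0.39 in the first 1 h library and 0.34 in the first 2 h library. The part of this trend in the changes was not tested. Rgs5 was at 274, 224 and 163 CPM unstimulated, 283, 189 and 174 CPM after 1 h and 349.7, 249 and 271 CPM after 2 h, and at 2 h against 1 h it had a change of 0.44 (SE 0.19, unadjusted p = 0.0402, adjusted p = 1). Pi16, at 8.12, 10.3 and 11.7 CPM unstimulated, 10.9, 8.53 and 15 CPM after 1 h and 7.34, 9.46 and 7.67 CPM after 2 h, had a change of -0.51 (SE 0.27, unadjusted p = 0.0847, adjusted p = 1) in that comparison. Zeb1 was at 84, 62.5 and 80.6 CPM unstimulated, 89.1, 75.6 and 70.8 CPM after 1 h and 96.8, 89.5 and 86.1 CPM after 2 h, with a change of 0.28 (SE 0.12, unadjusted p = 0.0361, adjusted p = 0.539) at 2 h. Zeb2 was at 78.8, 92.8 and 64.3 CPM unstimulated and 107, 92.2 and 88.7 CPM after 1 h, a change of 0.29 (SE 0.15, unadjusted p = 0.0686, adjusted p = 0.826). Ddr2 was at 369, 348 and 361 CPM unstimulated and 438, 369.6 and 403 CPM after 1 h (0.18, SE 0.09, unadjusted p = 0.0773, adjusted p = 0.826). All its 1 h libraries lay above those at 0 h, where 8.9% of all genes tested did not overlap. The members too low to test, Myocd, Kcnmb1 and Tcf21, had 0 to 42, 0 to 14 and 0 to 3 counts per library over the 9 libraries. Myh11 had 0 to 104 counts (0 to 3.5 CPM).

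**Figure D5:**
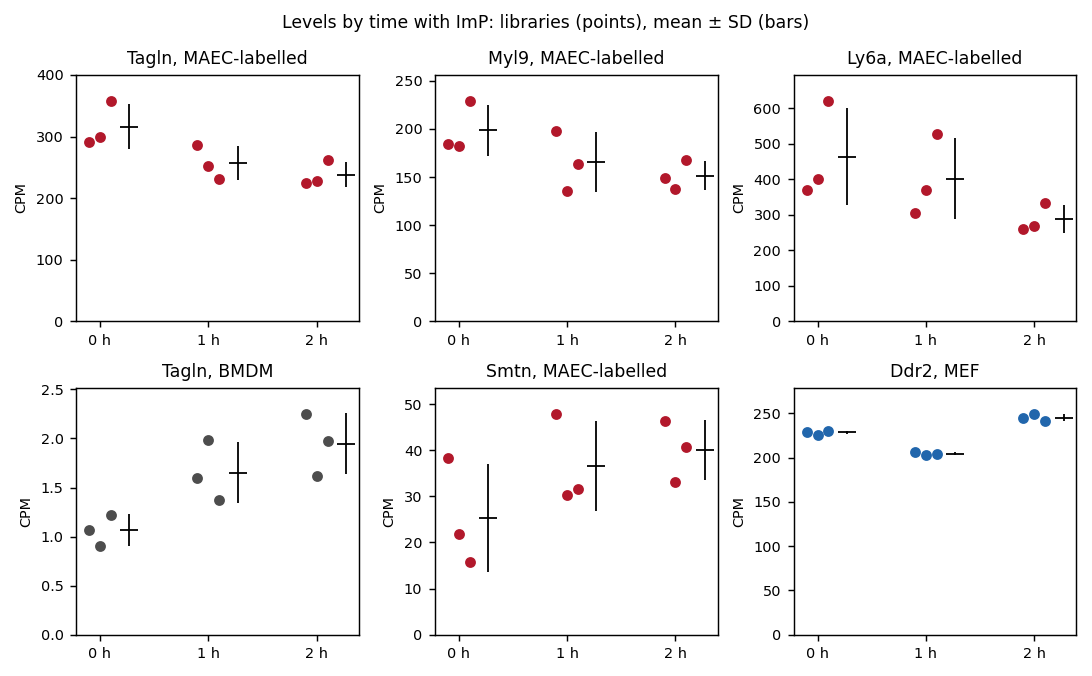
CPM by time with ImP for Tagln, Myl9, Ly6a and Smtn in MAEC-labelled cells, Tagln in BMDMs and Ddr2 in MEFs; points are the 3 libraries of each group, and bars to their right give the mean ± SD. Tagln is highest at 0 h in MAEC-labelled cells and lowest at 0 h in BMDMs, where it is at 0.905 to 2.25 CPM, and Ddr2 in MEFs is lower at 1 h than at 0 h and 2 h.

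In MEFs the smallest p at 1 h belonged to Ddr2, at 229, 226 and 230.0 CPM unstimulated, 206, 203 and 204 CPM after 1 h and 245, 249 and 242 CPM after 2 h. All 3 libraries at 1 h lay below those at 0 h, with a change of -0.17 (SE 0.06, unadjusted p = 0.00786, adjusted p = 0.846), and all at 2 h lay above those at 1 h, with a change of 0.25 (SE 0.06, unadjusted p = 5.93e-04, adjusted p = 0.152). DESeq2 called the latter (adjusted p = 0.00114), as did edgeR without the first 1 h library (0.0358). At 1 h against 0 h, 9.93% of all genes tested did not overlap, and at 2 h against 1 h 18.2%. Zeb1 was at 50.8, 49 and 54.2 CPM unstimulated, 44.6, 49.1 and 47.9 CPM after 1 h and 55.4, 59.4 and 57 CPM after 2 h, a change of 0.26 (SE 0.08, unadjusted p = 0.00415, adjusted p = 0.21) at 2 h against 1 h, which DESeq2 also called (adjusted p = 0.0304). Cald1, at 693, 739.6 and 738 CPM unstimulated, 630.4, 751 and 674 CPM after 1 h and 835, 807 and 778 CPM after 2 h, and Prrx1, at 256, 222 and 260.0 CPM unstimulated, 225, 236 and 261 CPM after 1 h and 271, 295 and 279.8 CPM after 2 h, had changes of 0.22 and 0.21 in that comparison, with adjusted p-values of 0.260 and 0.297. At 2 h against 0 h, Cd44 was at 569, 577 and 599 CPM unstimulated and 718, 742 and 619.6 CPM after 2 h, a change of 0.23 (SE 0.08, unadjusted p = 0.0116, adjusted p = 1). Cspg4 was at 128, 102 and 130.1 CPM unstimulated, 127, 113 and 119 CPM after 1 h and 137, 137 and 151 CPM after 2 h, with a change of 0.21 (SE 0.09, unadjusted p = 0.0334, adjusted p = 1) at 2 h. Thy1 was at 0.547, 0.999 and 0.929 CPM unstimulated, 0.796, 0.373 and 0.548 CPM after 1 h and 0.432, 0.402 and 0.423 CPM after 2 h, a change of -1.0 (SE 0.45, unadjusted p = 0.0439, adjusted p = 1) at low counts. Prrx1 had a change of 0.17 at 2 h against 0 h. Vim was at 1573, 1342 and 1574 CPM unstimulated and 1638, 1639.8 and 1775 CPM after 1 h (0.16, SE 0.07, unadjusted p = 0.0421, adjusted p = 0.846). Mylk was at 20, 17.4 and 20.6 CPM unstimulated and 17, 16.5 and 17.9 CPM after 1 h (-0.19, SE 0.10, unadjusted p = 0.0766, adjusted p = 0.848). At 2 h, 8 members lay above all 0 h libraries and 2 below, or 10 of 32, where 10.2% of all genes tested did not overlap. The trend with exon length had a Spearman's rho of 0.02, -0.33 and -0.39 in the 3 libraries at 1 h and of 0.22, 0.29 and 0.22 in those at 2 h. Of the 6 members with an unadjusted p under 0.05 at 2 h against 1 h, the 5 that were higher (Ddr2, Zeb1, Cald1, Prrx1 and Cspg4) have exon lengths of 9264 to 12041 bases, and S100a4, with a change of -0.32 at 2 h against 1 h, has 584 bases. The part of this trend in the changes was not tested.

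In BMDMs the members with the smallest p were at low counts, under 5 CPM in every library, apart from Cd44 and S100a4. Tagln was at 1.07, 0.905 and 1.22 CPM unstimulated, 1.6, 1.99 and 1.37 CPM after 1 h and 2.25, 1.62 and 1.98 CPM after 2 h. All its 1 h and 2 h libraries lay above those at 0 h, where 10.1% and 11.5% of all genes tested did not overlap. The change was 0.63 (SE 0.31, unadjusted p = 0.0622, adjusted p = 0.929) at 1 h and 0.87 (SE 0.31, unadjusted p = 0.014, adjusted p = 0.744) at 2 h. Mcam had 22, 10 and 12 counts at 0 h, 16, 10 and 7 at 1 h, and 6, 0 and 2 at 2 h. Its change at 2 h was -2.35 (SE 0.82, unadjusted p = 0.0122, adjusted p = 0.744). Cd44, the most abundant of the named members here, was at 659.6, 693 and 671 CPM unstimulated, 676, 699 and 690.2 CPM after 1 h and 734, 725 and 697 CPM after 2 h, a change of 0.09 (SE 0.05, unadjusted p = 0.0885, adjusted p = 0.812) at 2 h. S100a4 was at 192, 172 and 154 CPM unstimulated and 150.4, 164 and 167 CPM after 1 h (-0.10, SE 0.08, unadjusted p = 0.199, adjusted p = 0.964). Mylk, at 0.774, 0.905 and 0.536 CPM unstimulated, 1.16, 1.36 and 1.04 CPM after 1 h and 1.07, 0.73 and 0.932 CPM after 2 h, and Ly6a, at 1.44, 1.27 and 0.842 CPM unstimulated, 1.34, 1.33 and 2.24 CPM after 1 h and 1.1, 1.38 and 1.16 CPM after 2 h, had changes of 0.68 and 0.47 at 1 h. Cspg4, at 3.13, 1.74 and 2.03 CPM unstimulated, 2.25, 2.75 and 4.08 CPM after 1 h and 3.24, 4.87 and 2.01 CPM after 2 h, had a change of 0.55 at 2 h. Rgs5, at 0.332, 0.335 and 0.191 CPM unstimulated, 0.145, 0.398 and 0.268 CPM after 1 h and 0.442, 0.284 and 0.634 CPM after 2 h, had one of 0.74 at 2 h against 1 h. Of the 20 further SRF targets, Filip1l, which encodes an actin-associated protein, rose at 2 h in BMDMs, with 11.5, 14.8 and 14.6 CPM unstimulated, 21, 24.1 and 23.3 CPM after 1 h and 21.7, 21.9 and 27 CPM after 2 h and a change of 0.79 (SE 0.12, adjusted p = 0.042). The call was lost in limma-voom (0.79, adjusted p = 0.0668) and without any 1 of the 0 h and 2 h libraries other than the second at 0 h (adjusted p from 0.111 to 0.249). It was also lost without the third 1 h and 2 h libraries together (0.68, adjusted p = 0.0874), whose code numbers, 23 and 22, run against the order of the times. None of the other pathway genes passed with ImP in any cell type.

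Whether the ImP change differed from one cell type to another was tested in the fit of all 27 libraries. That fit uses 1 spread per gene for all cell types, although the spread differed. The edgeR coefficient of variation between replicates was 0.326 in MAEC-labelled cells, 0.126 in MEFs, 0.126 in BMDMs and 0.214 in the joint fit. Standard errors and p-values of these contrasts, and of the level differences above, rest on that shared spread. None of the 38 members tested passed in any of the 6 contrasts. Of all 17038 genes, 0% were called for MAEC-labelled cells against MEFs at 1 h and at 2 h, 0.0117% and 0.0528% (0.0352% as lower) for MAEC-labelled cells against BMDMs, and 0.00587% and 0.0117% for BMDMs against MEFs. Members with an unadjusted p under 0.05 numbered 1 and 3, 1 and 3, and 3 and 5 in these contrasts. Over all genes the shares with such a p were 11% and 7.93%, 6.68% and 7.85%, and 3.62% and 2.18%. Tagln had the smallest p among members for MAEC-labelled cells against BMDMs, with a difference of -0.94 (SE 0.26, unadjusted p = 0.00146, adjusted p = 0.373) at 1 h and -1.29 (SE 0.26, unadjusted p = 4.37e-05, adjusted p = 0.0621) at 2 h. The 2 h value lay close to the threshold: DESeq2 gave an adjusted p of 0.00247, RLE scaling 0.0433 and limma-voom 0.626, and leaving out 1 library gave 0.0174 to 0.253. For BMDMs against MEFs, Tagln differed by 1.07 (SE 0.27, unadjusted p = 5.34e-04, adjusted p = 0.978) at 2 h. Ddr2 differed by 0.33 (SE 0.15, unadjusted p = 0.0383, adjusted p = 0.416) between MAEC-labelled cells and MEFs at 1 h, which DESeq2 called (adjusted p = 0.0189). Rgs5 and Thy1, with differences of 1.17 and 0.92 at 2 h for MAEC-labelled cells against MEFs, were both under 1 CPM in MEFs. Tpm2 differed by -0.64 at 1 h and -0.85 (SE 0.32, unadjusted p = 0.0124, adjusted p = 0.479) at 2 h between MAEC-labelled cells and BMDMs, where it was at 486, 490.2 and 735 CPM unstimulated, 515, 469 and 429 CPM after 1 h and 471, 492 and 484 CPM after 2 h in the former and 0.884, 0.536 and 1.19 CPM unstimulated, 0.835, 1.33 and 1.14 CPM after 1 h and 1.29, 1.66 and 1.01 CPM after 2 h in the latter. Synpo2 was also among those with a p under 0.05 at 2 h, but BMDMs had 4 of its counts at 0 h, 1 at 1 h and 0 at 2 h, so no fold is given.

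Counting bears on a few members. The strand used in counting is not given in the sources used here, and 11 members share exon bases with a gene of the opposite strand that is also in the table, among them Tagln with Pcsk7, Zeb2 with Zeb2os and Smtn, Ddr2 and Zeb1 with non-coding transcripts. Tagln lies at chr9:45929619-45936058 (GRCm38, minus strand) and Acta2 at chr19:34241090-34255590 (minus strand). S100a4 shares exon bases with a gene model of the same strand. For these members reads of the overlapping bases cannot be told apart, and their values are uncertain to that extent.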

How the data were processed

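Total RNA of 27 libraries was sequenced on a NextSeq 2000. The deposited values are expected counts per gene that the authors had made whole; STAR, RSEM, cutadapt, FastQC, DESeq2 and R 4.3.2 are named with mm10 and GRCm38.p6 per the submitters' processing notes, with no settings. Each of the 41 genes was counted under its symbol. Levels are CPM with TMM scaling over all libraries, and levels per kilobase use the union of exons. Tests were quasi-likelihood F-tests in edgeR 4.0.16 (R 4.3.3) with filterByExpr at a minimum count of 10, robust dispersion and Benjamini-Hochberg adjustment over all genes, with a threshold of 0.05. Level differences and differences of the ImP change used 1 fit of all 27 libraries. ImP changes used 1 fit per cell type of 9 libraries.

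Alternatives were DESeq2 1.42.0, limma-voom (limma 3.58.1), RLE scaling, library totals alone, no filter or a mean of at least 1 CPM, a log2 change of at least 1, only the groups compared, a block of library code runs, removal of the trend on gene length, and leaving out each library. For BMDMs, the third 1 h and 2 h libraries were also left out together. Removal of the length and GC trends together, and a CArG box with 1 letter allowed to differ, were added after the data were examined. The tests were also run on counts simulated with the dispersions that edgeR had estimated. Such counts hold no length trend between libraries of a cell type and 1 spread per gene, so no conclusion is drawn from them. The members and lists were chosen with earlier results of these data known. The rule for library values was up to 4 members per role and level difference with the largest difference among those called, and the 4 with the smallest p in each ImP comparison. Unstimulated values of the 13 members outside it were added after they were seen. Of the 25192 symbols, 24506 were matched to the annotation by symbol and 225 by synonym. Counting intervals (95%) and floors cover counting error only. Replicate libraries differed by more than counting noise (lowest chi-square per degree of freedom 5.89), so none was merged.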

Additional observations from a re-analysis of the deposited data

How the results depend on the processing

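The counts of members called for a level difference stayed within 1.5 times in every alternative run: 27 to 35 for MAEC-labelled cells against MEFs, 34 to 38 against BMDMs and 28 to 30 for MEFs against BMDMs. For ImP, the count of 0 at 2 h against 1 h in MEFs became 2 under DESeq2 and 0 to 1 without each library in turn. The difference of the 1 h change between MAEC-labelled cells and MEFs had 1 member under DESeq2. That of the 2 h change between MAEC-labelled cells and BMDMs had 1, Tagln, under DESeq2, RLE scaling, no low-count filter and a filter at 1 CPM, and 0 to 1 without each library in turn (1 without the first MAEC-labelled library at 0 h or the third at 2 h). Between libraries of the same code run, the correlation of deviations was -0.05 to 0.22 in MAEC-labelled cells, -0.12 to 0.39 in MEFs and -0.40 to 0.14 in BMDMs. The value of -0.40 was between the third BMDM libraries at 1 h and 2 h, which have code numbers 23 and 22. In every other run the 1 h library has the lower code number, and what the reversed order means was not tested. Libraries of different runs were not correlated for reference, so whether library codes pair samples across groups cannot be decided from these values. A replicate block of code runs gave 0 members called in each ImP comparison. For Tagln in the 2 h contrast of MAEC-labelled cells and BMDMs, the adjusted p in edgeR with the block was 0.0958. Without the third 1 h and 2 h BMDM libraries it was 0.194.

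For level differences of single genes, 1743 alternatives kept direction and call, 10 lost the call and 37 gained one in the same direction. Of 15 alternatives each against MEFs, calls were gained in 8 for Vim, 7 for Cd44, 6 for Des, 4 for Tpm1 (as lower), 3 for Prrx1 (1 as higher, 2 as lower) and 1 for Notch3. Sign changes (26) occurred only for level differences that had not passed, and the cause was not tested. Between MAEC-labelled cells and MEFs, with the length trend removed and with the length and GC trends removed, Tpm1 was 0.18 and 0.11, Synpo2 0.21 and 0.077, Prrx1 0.48 and 0.13 and Notch3 0.51 and 1.26, of which 0.48 for Prrx1 and 1.26 for Notch3 passed the test. Notch3 was also 0.029 under DESeq2 and under RLE scaling and 0.019 among genes of mean 1 CPM or more, and ran from -0.20 to 0.14 without each library in turn. Vim was -0.0080 with library totals alone. Between MAEC-labelled cells and BMDMs, Mcam was -0.40 in limma-voom, and Cd44 was -0.00365 with only the 2 groups and ran from -0.0863 to 0.12 without each library in turn. Between MEFs and BMDMs, S100a4 was 0.23, 0.069 and 0.12 with library totals alone and with the length, and length and GC, trends removed. Dpt was -0.025 in limma-voom and -0.18 to 0.34 without each library in turn. Pi16 was 0.044 with library totals alone and -1.09 to 0.65 without each library in turn, and Cd44 was 0.21 with library totals alone. Depth limits Kcnmb1, Myocd and Tcf21, which were too low to test.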
